A study of Mus musculus with 4 samples.

Results

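The chondrocyte transcription factors described here are 10 genes chosen by name: Sox9, Sox5 and Sox6, Nkx3-2, Runx1, Runx2 and Runx3, and Prrx1, Prrx2 and Foxc1. They are 10 of 37042 genes or unnamed transcripts read on the array and of 20641 genes with a symbol, and no threshold on a measured value entered the rule. All 10 were read, by 15 probes on 24 spots: 5 by 1 probe and 5 by 2 probes. Total RNA came from primary chondrocytes of 6-day-old C57BL/6J mice in which both Rela alleles were floxed, and which either carried Prrx1-Cre (conditional knockout, cKO) or, as littermates, did not. Rela encodes the NF-κB subunit p65, and the Prrx1 promoter drives Cre in limb mesenchyme, so the deletion is not limited to chondrocytes. The cells were kept for 3 days without TNF or with 10 ng per ml of it. Each of the 4 combinations of genotype and treatment was hybridised to 1 single-colour array. No value between conditions therefore has a replicate, no test was run, and differences are those of these 4 arrays. Rela fl/fl cells are called controls, as in the labels, and cells kept without TNF are called untreated.

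SOX9 is the master factor of the cartilage lineage, and it acts together with SOX5 and SOX6 on the enhancers of cartilage matrix genes. RUNX proteins bind DNA with their partner CBFB: RUNX2, joined by RUNX3, drives chondrocytes to hypertrophy and bone, whereas RUNX1 acts in chondroprogenitors and in blood cells. NKX3-2 represses Runx2 and holds back maturation, and PRRX1, PRRX2 and FOXC1 act in the mesenchyme from which limb and skull skeleton form.

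Because these factors can act on one another's genes, promoter windows are shown in which motifs of the SOX and RUNX families lie in pairs, together with the window that holds a motif of NF-κB. Of 32851 promoters in the RefSeq table of GRCm38.p6 (250 bases before to 50 after a start), 16 belonged to 9 of the 10 genes. The RUNX motif TGTGGT, seen as ACCACA when the other strand is read, was searched on both strands and lay in 6 of the 16, and in 16.8% of all promoters. The SOX motif AACAAT, searched on both strands too, lay in 1 of the 16 and in 10.7% of all, and the kappaB motif in 1 of the 16 and in 5.81% of all. None of these motifs overlap in the windows below. The windows are given 5′ to 3′ on the gene's own strand, with the motif letters in capitals.
Runx1, RUNX pair: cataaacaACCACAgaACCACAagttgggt
Runx2, RUNX pair: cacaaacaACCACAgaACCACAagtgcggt
Runx3, RUNX pair: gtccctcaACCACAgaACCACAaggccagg
Sox6, SOX pair: tctttcAACAATgcttgATTGTTttcacaa
Foxc1, kappaB: gtagtggggcGGGGCTCCCCtgcccggaaa

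The Runx1 window is chr16:92826025-92826054 on the minus strand, bases 21 to 50 after the start. The Runx2 window is chr17:44814583-44814612 on the minus strand, bases 16 to 45 after the start. The Runx3 window is chr4:135120503-135120532 on the plus strand and ends 113 bases before the start. All 3 RUNX genes thus carried the same pair, both motifs on the same strand with their first bases 8 bases apart, and this spacing occurred in 7 of 32851 promoters (0.0213%), 3 of them these. The pair was looked for after the sequences had been read, so the count is a description. Runx2 had another RUNX motif 80 bases before its start, and the second listed starts of Runx1 and Runx3 had none. The Sox6 window, chr7:115824923-115824952 on the minus strand, ends 213 bases before 1 of the 6 listed starts of that gene and holds the SOX motif once on each strand. The Foxc1 window is chr13:31806561-31806590 on the plus strand, with the kappaB motif starting 75 bases before the start. A match is only a run of letters and does not show that a factor binds there.

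The arrays themselves set limits on what follows. Rela, the gene to be deleted, was read by a single probe with processed intensities of 17380 and 21472 in untreated and TNF-treated controls and 21528 and 23707 on the cKO-labelled arrays. It was thus not lower but higher there, by log2 differences of 0.26 and 0.21 in the untreated and treated pairs. Where the probe lies relative to the deleted exons is not given in the sources used here. The arrays are therefore named by their label, as cKO-labelled arrays. Xist was well above background on the control arrays only, and the Y-linked genes Ddx3y, Eif2s3y and Uty were at least 1.21 higher (log2) on the cKO-labelled arrays, so that sex and genotype cannot be told apart. Of 15 genes known to respond to TNF through NF-κB, 11 were at least 2-fold higher with TNF in controls and 5 on the cKO-labelled arrays. Of all genes, 2.39% were at least 2-fold higher with TNF in controls. On the cKO-labelled arrays 5.47% of all genes differed at least 2-fold with TNF, in either direction. On each array, some groups of neighbouring spots were bright there alone, and such patches held 1.04% to 10.7% of the spots of an array. All 10 chondrocyte markers were well above background on all 4 arrays, as were all 10 fibroblast-like markers.

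Levels are given as the processed intensity of a spot, in arbitrary units, and differences as log2 values after each array was scaled to its 75th percentile, which was 590 to 634 units. The scale on which a probe answers is its own, so levels are compared between arrays and not between genes. Differences of at least 1 (2-fold) were counted as called if the brighter of the arrays had passed the scanner's flag for signals well above background. The technical spread comes from 399 probes spotted 10 times: a difference of 2 spots had an SD of 0.14, and a difference was counted as past the technical spread at 2 SD, or 0.28. That SD was 0.32 for the dimmest probes, 0.11 for those near the 75th percentile and 0.078 for the brightest. It covers spots within an array and leaves out the spread between cultures and animals, which 1 array per condition cannot give.

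Of the 10 transcription factors, 1 was called with TNF in controls, Sox6, which was lower. Over all genes, 6.66% were called in that comparison, 2.39% higher and 4.26% lower. None was called with TNF on the cKO-labelled arrays, where 5.47% of all genes were. Between genotypes, 1 was called without TNF, Sox6, which was lower on the cKO-labelled array. Of all genes, 7.9% were called there, 3.53% higher and 4.38% lower. With TNF, 1 was called, Runx1, again lower. Of all genes, 4.37% were called there, 1.17% higher and 3.19% lower. With 10 genes, a single call does not set the transcription factors apart from the background in any of these comparisons. The median log2 difference of the 10 was 0.07 and -0.09 with TNF in the 2 genotypes and 0.06 and 0.08 between genotypes without and with TNF, compared with 0.01, 0.06, 0.01 and 0.06 over all genes. Comparisons that use the same array are not independent: the untreated control array enters both comparisons in which Sox6 was called.

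**Figure D1:**
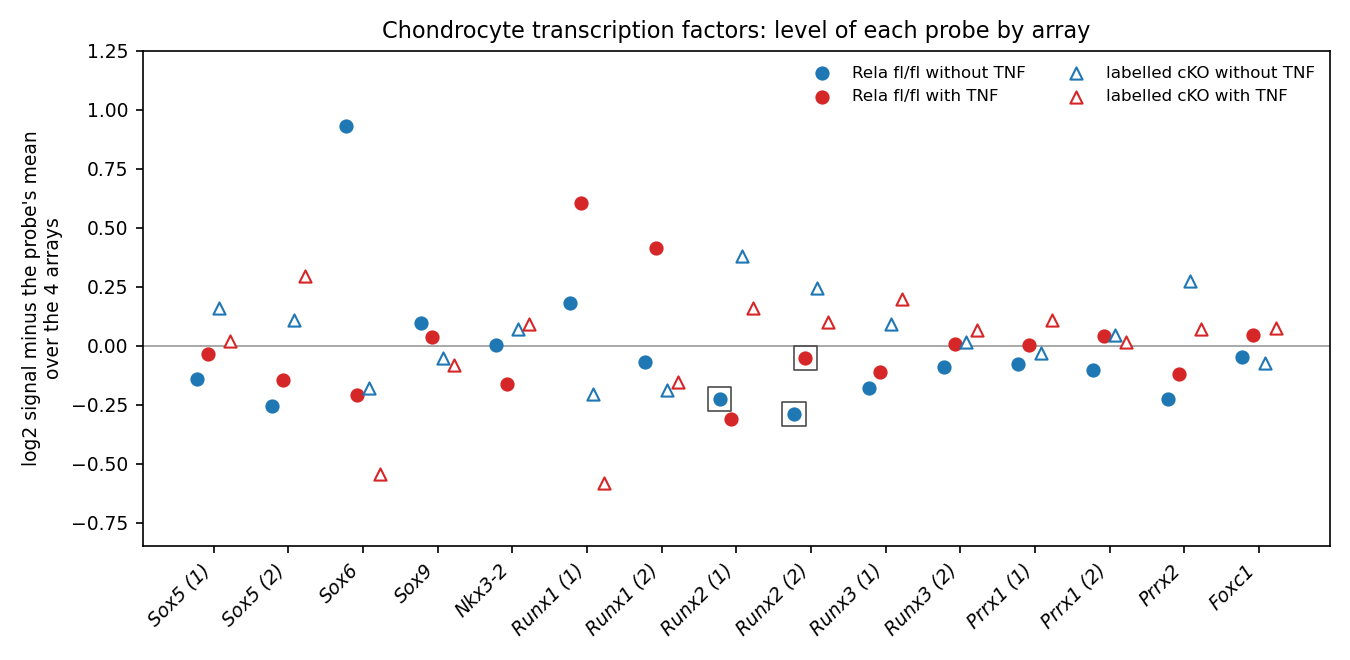
Level of each of the 15 probes on the 4 arrays, as the log2 signal minus the probe's own mean over the arrays; 1 and 2 mark the probes of a gene, and squares mark values not well above background. Sox6 stands 0.93 above its mean on the untreated control array, Runx1 is highest with TNF in controls by both probes, and most others lie within 0.30 of their mean.

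Sox9 had the best measured level, since its probe was printed on 10 spots of every array. After outlier spots were left out, its mean intensity was 8661 ± 328 (SD of 9 spots) in untreated controls and 8351 ± 276 (10 spots) with TNF. On the cKO-labelled arrays it was 8053 ± 191 (8 spots) without TNF and 7320 ± 123 (8 spots) with TNF. The order after scaling was untreated control, TNF-treated control, untreated cKO-labelled and TNF-treated cKO-labelled, with steps of 0.06, 0.09 and 0.03. The log2 differences were -0.06 and -0.03 with TNF in controls and cKO-labelled cells, and -0.15 and -0.12 between genotypes, untreated and treated. Its spots on the untreated control array, with a lowest log2 signal of 3.73, did not overlap those of the TNF-treated cKO-labelled array, with a highest of 3.67 after outlier spots were left out. With those kept, the highest there was 3.74 and the spots overlapped. The SE of a difference of these means, from the spots alone, was 0.015 to 0.024. Each of the 4 differences exceeded 2 of these SE, but spots of 1 array are no replicates of a culture, and the alternatives of processing moved the TNF differences between -0.14 and -0.01 and the genotype differences between -0.19 and -0.10. In these bulk cultures, fewer chondrocytes and less Sox9 RNA per chondrocyte cannot be told apart.

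Sox5, a partner of SOX9 without an activation domain of its own, differed with TNF by less than the technical spread. Its brighter probe read 9693 in untreated controls, 10512 with TNF, and 12334 and 10411 on the cKO-labelled arrays without and with TNF. The untreated cKO-labelled array was highest, and the log2 difference between genotypes was 0.30 without TNF and 0.05 with TNF. The TNF differences were 0.11 and -0.14. The second probe was dim, at 59.9, 65.1, 79.5 and 84.3 in the same order of arrays, with genotype differences of 0.36 and 0.44. Both probes were therefore higher on the untreated cKO-labelled array, and with TNF they gave different values, the second at a level where the technical SD was 0.18 to 0.32.

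Sox6, the close paralogue of Sox5, gave the largest difference of the 10 with TNF in controls. Its single spot read 818 in untreated controls, 374 with TNF, and 392 and 283 on the cKO-labelled arrays without and with TNF. The untreated control was high and stood apart, the middle arrays were 0.03 apart, and the TNF-treated cKO-labelled array was lowest. The log2 differences were -1.14 with TNF in controls (a ratio of 0.454) and -1.11 between genotypes without TNF (0.464). With TNF on the cKO-labelled arrays the difference was -0.37, and between genotypes with TNF -0.34, each past 2 technical SD. The Sox6 spot lay in a patch on the untreated control array, the brighter array of both calls: 16 of its 52 neighbouring spots were bright there alone. The neighbours well above background had median differences of -0.06 with TNF in controls (25 spots) and -0.20 between genotypes without TNF (26 spots). Among the brighter of these neighbours the medians were -0.20 (15 spots) and -0.37 (16 spots). For spots of repeated probes in patches of that array, the excess over the other spots of the same probe was taken. With a log2 signal outside patches of -1 to 1.5, the median excess was 0.04, and 1 of 96 spots exceeded by more than 1. Below -1 the median was 0.27, and 75 of 232 spots exceeded by more than 1. On the other arrays the Sox6 log2 signal was -0.73, -0.70 and -1.06, at the border of these ranges. The part of the patch in the Sox6 difference was not tested. Leaving out patch spots removes the Sox6 probe, and both calls with it, and another background correction (normexp) gave -0.78 in both, short of 2-fold. The differences that do not use the untreated control array, -0.37 and -0.34, are free of that patch.

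**Figure D2:**
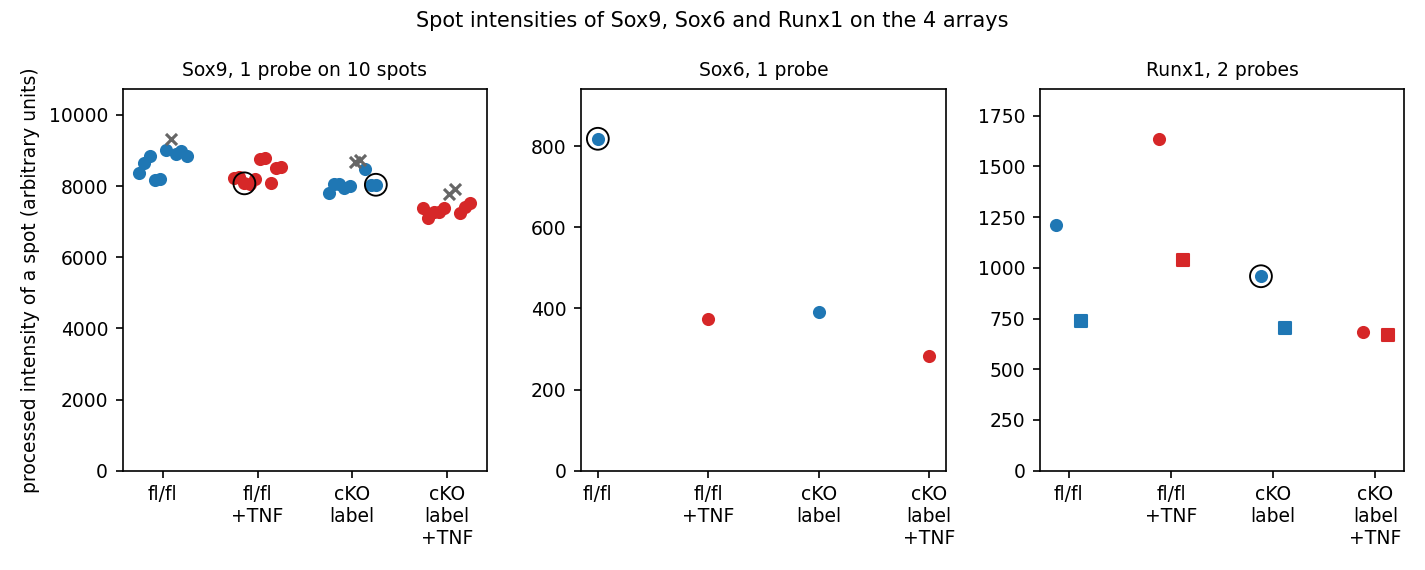
Processed intensity of every spot of Sox9, Sox6 and Runx1 on the 4 arrays, on linear axes from 0; crosses mark outlier spots that were left out, rings mark spots in a patch, and for Runx1 circles and squares are its 2 probes. Sox9 falls in a narrow band on every array, the high Sox6 spot (818) is the one in a patch, and both Runx1 probes are highest in TNF-treated controls (1637 and 1040).

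Nkx3-2, the maturation repressor, was dim and even. It read 119 and 106 in untreated and TNF-treated controls and 128 and 121 on the cKO-labelled arrays. Its log2 differences were -0.17 and 0.02 with TNF and 0.07 and 0.25 between genotypes, all within the technical spread, so no order of the arrays is given.

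Runx1 was the member whose TNF differences had opposite signs in the 2 genotypes, both past the technical spread, by its brighter probe. This probe read 1211 in untreated controls and 1637 with TNF, but 959 and 686 on the cKO-labelled arrays without and with TNF. The TNF-treated control array was highest and the TNF-treated cKO-labelled array lowest, with steps of 0.43, 0.38 and 0.38, all past the technical spread. The log2 difference was 0.43 with TNF in controls and -0.38 on the cKO-labelled arrays, and between genotypes it was -0.38 without TNF and -1.19 with TNF (a ratio of 0.439). The difference of the TNF differences was -0.81, past 2 technical SD (0.39) and short of 2-fold. Of all genes, 29.3% passed 2 technical SD in this measure and 11.5% reached 2-fold. Sox6 passed 2 technical SD in it too (0.77), with its untreated control spot in a patch. This spot lay in a patch on the untreated cKO-labelled array, with 9 of 49 neighbours bright there, and that array is no part of the call with TNF. That array does enter the TNF difference on the cKO-labelled arrays, the genotype difference without TNF and the difference of TNF differences. The part of the patch in these was not tested. With patch spots left out on any array, or with the mean over probes, Runx1 was not called.

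The second Runx1 probe, with no spot in a patch, read 740, 1040, 703 and 670 in the same order of arrays. It was again highest with TNF in controls, by 0.48, while the other 3 arrays lay within 0.12 of each other. Its TNF difference on the cKO-labelled arrays was 0.03, and its genotype difference was -0.12 in the untreated pair and -0.57 in the treated pair, short of a call. Both probes thus showed Runx1 higher with TNF in controls and lower on the TNF-treated cKO-labelled array than on the TNF-treated control array. The lower level with TNF on the cKO-labelled arrays was seen by 1 of them.

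Runx2, the factor of hypertrophy and bone, was near background. Its brighter probe read 40.0 and 37.9 in untreated and TNF-treated controls and 62.8 and 50.1 on the cKO-labelled arrays, and it was not well above background on the untreated control array. The cKO-labelled arrays were the higher ones, by 0.61 without TNF (a bound, since the dim array gives only an upper limit) and 0.47 with TNF. Probes this dim had a technical SD of 0.32, and both differences are under 2 of these. With normexp background correction they were 0.22 and 0.23. The TNF difference was -0.22 on the cKO-labelled arrays, and -0.09 in controls, where the brighter array was the one not well above background. The second probe, at 25.9, 30.7, 38.8 and 32.6, was not well above background on either control array, with genotype differences of 0.22 and 0.15 as bounds. Whether Runx2 differed was not detectable at this signal.

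Runx3 read 155 and 164 in untreated and TNF-treated controls and 194 and 193 on the cKO-labelled arrays by its brighter probe. The cKO-labelled arrays were higher by 0.27 without TNF and 0.31 with TNF, under 2 SD of probes of this level (0.18 each), and the TNF differences were 0.07 and 0.10. By the second probe, at 86.0, 92.7, 95.7 and 92.1, the genotype differences were 0.11 and 0.06.

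Of the limb mesenchyme factors, Prrx2 alone differed past the technical spread, without TNF between genotypes. It read 10239 and 11076 in untreated and TNF-treated controls and 14949 and 12039 on the cKO-labelled arrays. The untreated cKO-labelled array was highest, and its genotype difference was 0.50 without TNF and 0.19 with TNF. TNF differences were 0.11 in controls and -0.21 on the cKO-labelled arrays. For probes this bright the technical SD was 0.078, and by 2 of these the genotype difference with TNF and the TNF difference on the cKO-labelled arrays passed too.

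Prrx1, whose promoter drives the Cre transgene, read 2612 and 2777 in untreated and TNF-treated controls and 2778 and 2847 on the cKO-labelled arrays, by the brighter probe. Its second probe read 988, 1096, 1128 and 1029. Over both probes the 8 differences ran from -0.03 to 0.15. Foxc1, the gene with the kappaB motif printed above, read 8054 and 8627 in untreated and TNF-treated controls and 8166 and 8415 on the cKO-labelled arrays. Its differences ran from -0.03 to 0.15, so neither gene moved past the technical spread in any comparison. The Foxc1 spot and the brighter Prrx1 probe lay in patches on the untreated control array, with 3 and 11 bright neighbours.

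**Figure D3:**
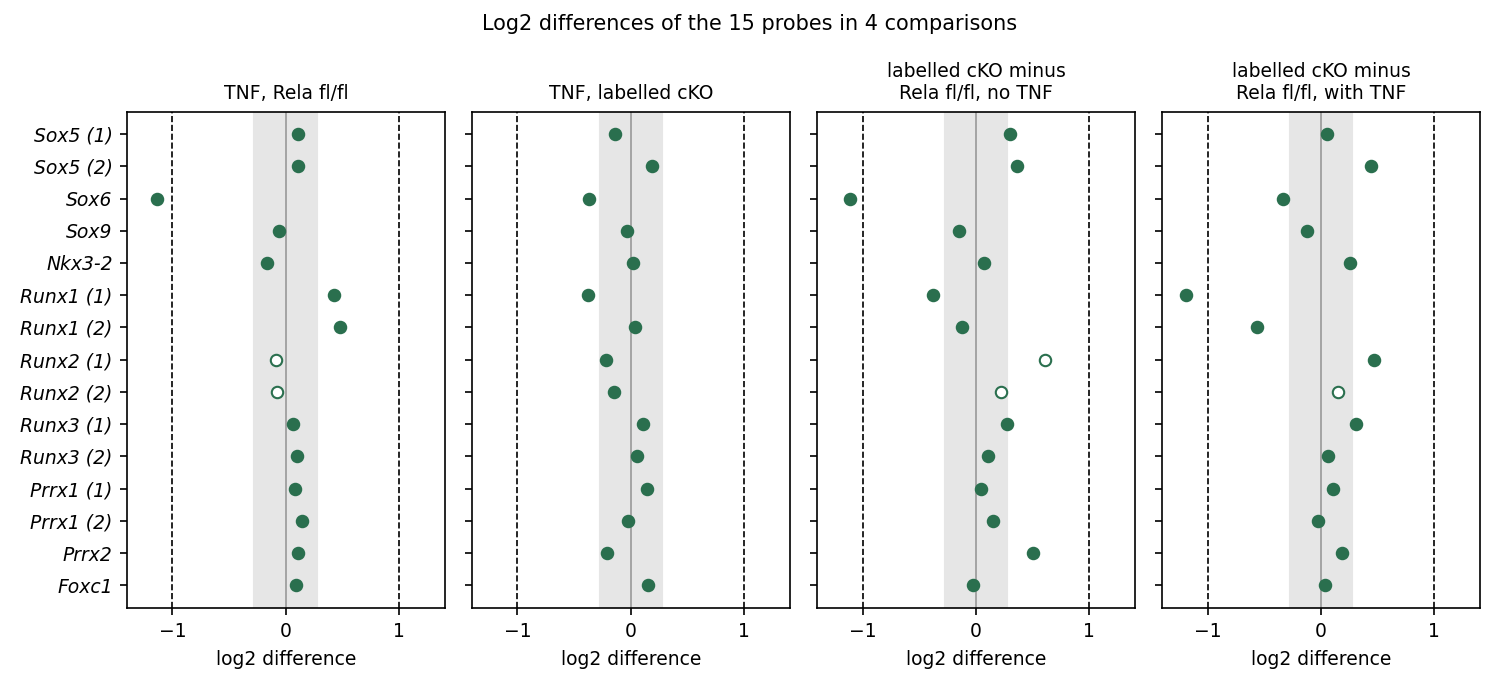
Log2 differences of the 15 probes in the 4 comparisons; the grey band is 2 technical SD (0.28) each way, dashed lines mark 2-fold, and open points are bounds or values with no array well above background. Points past 2-fold are Sox6 with TNF in controls (-1.14) and between genotypes without TNF (-1.11), and 1 Runx1 probe between genotypes with TNF (-1.19).

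Counted by the brighter probe, 2 of the 10 genes passed the technical spread with TNF in controls (Runx1 higher, Sox6 lower; 23.6% of all genes) and 2 on the cKO-labelled arrays (Sox6 and Runx1, both lower; 29.7%). Between genotypes 5 of 10 passed it without TNF, with Sox5, Runx2 and Prrx2 higher and Sox6 and Runx1 lower on the cKO-labelled array (29.3% of all genes). With TNF 4 of 10 did, with Runx2 and Runx3 higher and Sox6 and Runx1 lower (29.5%). These shares use the SD pooled over all levels, which is too small for the dim probes of Runx2 and Runx3 and too large for bright ones. By the SD of each probe's own level, Runx2 passed in neither genotype comparison, which leaves 4 of the 5 without TNF, Runx3 did not pass with TNF, and Prrx2 passed in the genotype comparison with TNF and with TNF on the cKO-labelled arrays.

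Most genes known as SOX9 targets were lower on the cKO-labelled arrays. All 15 cartilage genes of a list of SOX9 targets were well above background on all arrays. Between genotypes without TNF, 15 of 15 were lower on the cKO-labelled array, with a median of -0.83, and 4 were called: Matn1 (-1.85), Snorc (-1.33), Matn4 (-1.24) and Col9a2 (-1.06). With TNF, 14 of 15 were lower, with a median of -0.47, and 2 were called, Matn1 (-1.18) and Matn4 (-1.08). The medians over all genes were 0.01 and 0.06, and 4.38% and 3.19% of all genes were called lower. Matn1, a matrilin of the cartilage matrix, read 55233 and 45376 in untreated and TNF-treated controls and 15802 and 19070 on the cKO-labelled arrays. Col2a1, the main cartilage collagen, was level between genotypes (-0.03 and 0.00), whereas Acan (-0.60 and -0.47), which encodes aggrecan, and Comp (-0.26 and -0.29) were lower. The list therefore did not move as 1 block.

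With TNF in controls, 14 of the 15 SOX9 targets were lower, with a median of -0.23, and none was called. On the cKO-labelled arrays 11 were higher, with a median of 0.07 that turned to -0.04 without scaling. Their summed signal, in units of the 75th percentile of the array, was 2176 and 2046 in untreated and TNF-treated controls and 1588 and 1664 on the cKO-labelled arrays. The chondrocyte markers, which share 9 genes with this list, ran from 917 to 1216 in sum, with the same order of the arrays. Markers of other cell types were set beside these values. A sum weighs its brightest probes most, so it does not measure an amount of cells. The fibroblast-like markers ran from 1399 to 1519 in sum. Between genotypes, 7 of 10 were lower on the cKO-labelled array without TNF (median -0.21) and 9 of 10 with TNF (median -0.25). Thy1, a surface protein of fibroblasts, was called without TNF (-1.59), while S100a4 was higher in both pairs (0.86 and 0.82). Of the osteoblast markers, Ibsp, Alpl and Col1a1 were well above background on all arrays and Sp7 on 3, and Dmp1 and Phex on none. Those 4 were higher on the cKO-labelled array without TNF (4 of 4, median 0.56) and mostly so with TNF (3 of 4, median 0.75), and Ibsp, Alpl and Sp7 are also in the list of bone genes below.

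Of 9 leukocyte markers read, 7 were well above background on all arrays and Ptprc, which marks all leukocytes, on none. Their sum was 38.0 to 46.4, and Itgam alone gave 40.3 of the 46.4, on the untreated cKO-labelled array. Of 8 leukocyte markers that could be compared between genotypes, 5 were lower on the cKO-labelled array both without TNF (median -0.14) and with TNF (median -0.03). Adgre1, a macrophage marker, was called higher on the untreated cKO-labelled array (2.87) and lower with TNF on the cKO-labelled arrays (-3.47), with its untreated cKO-labelled spot in a patch. Lyz2 was called lower with TNF in controls (-1.42) and on the untreated cKO-labelled array (-2.11), with its untreated control spot in a patch. Tyrobp was called lower there (-1.61, a bound). Of 6 endothelial markers, Pecam1 and Kdr were well above background on all arrays and Cdh5 and Tek on none, and the sum was 17.8 to 20.8. Kdr alone gave 20.5 of the 20.8, on the TNF-treated cKO-labelled array. Between genotypes, 2 of 3 were higher on the cKO-labelled array without TNF (median 0.37) and with TNF (median 0.12). Emcn was called in both comparisons of its untreated cKO-labelled spot, which lay in a patch and was the only one well above background (1.33 and -2.31, bounds). Of 6 muscle markers, Acta1 and Tnnt3 were well above background on all arrays and Myod1 and Myog on none. The sum ran from 1.93 to 3.03 and was higher on both cKO-labelled arrays (3.03 without TNF, 2.82 with it) than on both control arrays. Acta1 alone gave 2.65 of the 3.03. Between genotypes, 3 of 3 muscle markers that could be compared were higher on the cKO-labelled array without TNF (median 0.18) and with TNF (median 0.47). The part of cell composition in the differences of the SOX9 targets and of the transcription factors was not tested.

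Genes of hypertrophy and bone, a mixed list of RUNX2 targets and other hypertrophy genes of which 11 of 12 were read, were mostly higher on the cKO-labelled arrays. Without TNF, 10 of 10 measurable genes were higher on the cKO-labelled array, with a median of 0.48, and 2 were called, Ibsp (1.13), which encodes bone sialoprotein, and Mmp13 (1.04), a collagenase. Of all genes, 3.53% were called higher between genotypes without TNF and 1.17% with TNF, and the medians were 0.01 and 0.06. With TNF, 7 of 11 were higher, with a median of 0.38, and the bone factor Sp7 was called (1.81, a bound). Mef2c (-0.34), Vegfa (-0.33) and Phospho1 (-0.48) were lower in that pair, past 2 technical SD as pooled over all levels. Mmp13 was not higher in the treated pair (-0.16), and its difference of TNF differences was -1.20. Col10a1, the collagen of hypertrophic cartilage, read 5034 and 4470 in untreated and TNF-treated controls and 9263 and 8339 on the cKO-labelled arrays, or 0.83 and 0.97 higher there. The Col10a1 difference stayed short of 2-fold in both pairs. With TNF in controls, Mmp13 was called higher (1.09) and Sp7 lower (-1.09, a bound), and the list's median was -0.18. On the cKO-labelled arrays none was called, and the median was -0.11. Spp1, which encodes osteopontin, was higher with TNF in both genotypes, by 0.81 and 0.91.

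**Figure D4:**
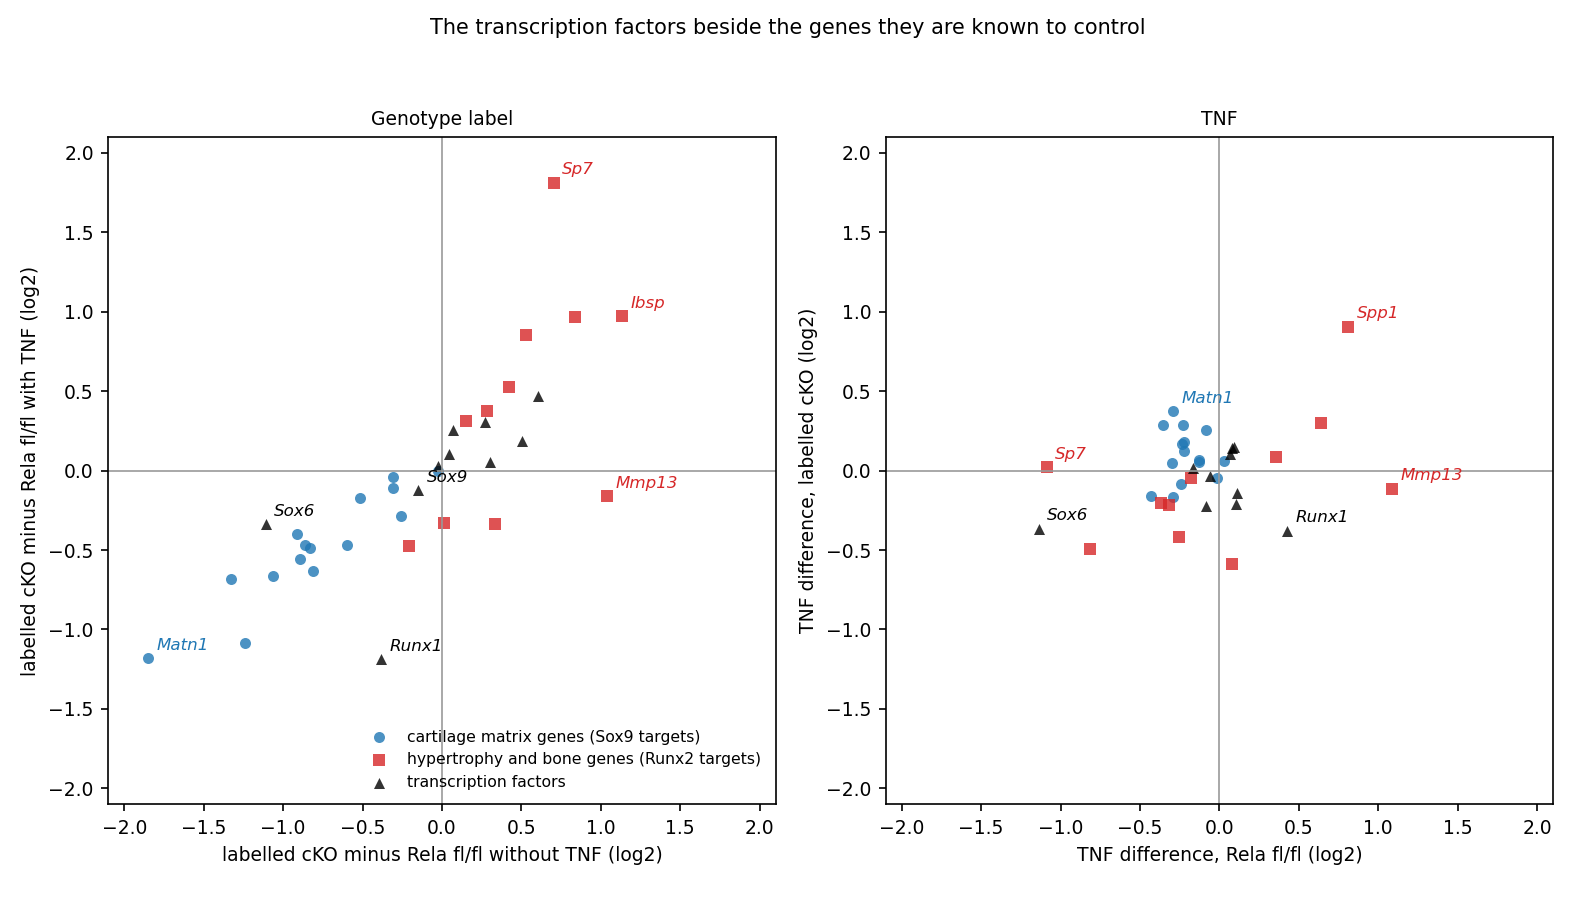
Log2 differences of the SOX9 targets (circles), the hypertrophy and bone genes (squares) and the 10 transcription factors (triangles); the left panel sets the genotype difference with TNF against that without, and the right panel the TNF difference on the cKO-labelled arrays against that in controls. SOX9 targets lie mostly at the lower left of the left panel (medians -0.83 and -0.47), bone genes mostly at the upper right (0.48 and 0.38), and Sox9 beside 0 (-0.15 and -0.12).

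Of 16 genes whose proteins work with SOX and RUNX factors, 15 could be compared, and none was called in any of the 4 comparisons. Cbfb, the partner of all RUNX proteins, read 14919 and 14486 in untreated and TNF-treated controls and 14892 and 15994 on the cKO-labelled arrays, with TNF differences of -0.05 and 0.21 and genotype differences of -0.05 and 0.21. The co-activator Yap1 and the deacetylase Hdac5 had differences of size 0.27 or less. Of 9 other SOX genes, 5 were well above background (Sox4, Sox8, Sox10, Sox11 and Sox13), and none was called. Sox8, the relative of Sox9, read 61.3 and 49.9 in untreated and TNF-treated controls and 31.6 and 24.4 on the cKO-labelled arrays, and stayed just short of the limit between genotypes, at -0.99995 without TNF and -0.97 with TNF, at a level where the technical SD was 0.32.

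Of 30 other limb and skeletal transcription factors, Foxa2 alone was called in the 4 comparisons, with TNF in controls (-1.81) and between genotypes without TNF (-2.21). Of all genes, 6.66% and 7.9% were called there. FOXA2 is a factor of hypertrophic chondrocytes. Its spot read 1092 in untreated controls, in a patch of that array, and 313, 243 and 279 on the other arrays. The brightest of the list, Atf4 and Pitx1, had differences of size 0.21 or less.

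Lastly, genes were ranked by how closely their 4 log2 values, each set to its own mean, followed those of the 3 members with the widest range of those well above background on all 4 arrays, among 9660 genes well above background and free of patches. The measure was the root mean square difference over the 4 arrays. Nearest to Sox6 were Foxr1 (0.084), Rlbp1 (0.090) and Cmtm5 (0.13), and nearest to Runx1 were Vcan (0.047), 1700125H20Rik (0.075) and Serping1 (0.090). Nearest to Prrx2 were Meis2 and Cdc42bpg (0.019 each) and Dlgap5 (0.021). Vcan, which encodes the proteoglycan versican, had TNF differences of 0.51 in controls and -0.47 on the cKO-labelled arrays and a genotype difference of -1.31 with TNF, beside 0.43, -0.38 and -1.19 for Runx1. Cmtm5, whose spots lay outside patches, differed by -0.80 and -0.24 with TNF and by -1.02 and -0.45 between genotypes, beside -1.14, -0.37, -1.11 and -0.34 for Sox6. With 4 values each and 9660 genes to choose from, close matches are no sign of a link.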

How the data were processed

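Gene expression was measured on 4 single-colour Agilent mouse arrays, 1 per condition. The authors deposited the processed intensity of each spot, from which Feature Extraction 10.10.1.1 had subtracted background and array-wide trends, with flags (0 or 1) for outliers, saturation and signals well above background. A second deposited table held scaled intensities, each array's processed values multiplied by a single factor (1.83 and 1.77 for untreated and treated Rela fl/fl, 1.79 and 1.78 for cKO-labelled; column medians 69.4 to 88.5). The basis of the factors is not given in the sources used here.

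From the deposited intensity, log2 values were taken and the 75th percentile of the array's 59305 transcript spots was subtracted. Outlier spots were left out (138 to 225 per array), no spot was saturated, and spots of a probe were averaged. The probe with the highest mean stood for a gene. Signals without the well-above-background flag that lay under the lowest signal with it on their array (intensities of 15.7 to 32.2) were raised to that. Between 50.9% and 58.1% of probes were well above background. Symbols came from RefSeq (GRCm38.p6) by accession, for 27235 of 55681 probes. The array design names mm9, and coordinates are those of the RefSeq promoters. A spot lay in a patch if 3 or more of the 54 spots within 5 rows and 2 columns were at least 2-fold brighter on that array than on each other array.

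Text names the 10 members, the Rela probe, called genes of each list (those of the TNF response and sex-linked lists mainly by count), its brightest genes, and the 3 genes most like each of 3 members. Members, lists, rules and the patch alternative were chosen with earlier results of these data known. Where another gene of a list is named, it was chosen after its values were seen. Alternatives were scaling (none, quantile, the authors' values), normexp background (offset 50, on median intensities), filters on dim probes, limits of 1.5-fold and 3-fold, other probe rules, patches and outlier flags. Counting was tested on simulated data. Python 3.11.15 (numpy 2.4.6, pandas 2.3.3, matplotlib 3.10.9) and R 4.3.3 with limma 3.58.1 were used. The summed osteoblast marker list is not reported here.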

Additional observations from a re-analysis of the deposited data

Results flagged for a closer look

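Among the members and the genes of the lists well above background on all 4 arrays, the results below are those in which the TNF difference had opposite signs in controls and on the cKO-labelled arrays, past the technical spread in both. With 1 array per condition, the differences between genotypes were not tested. The Runx1 probe A_51_P206585 was 0.43 higher (log2) with TNF in controls and differed by -0.38 on the cKO-labelled arrays. Its spot on the untreated cKO-labelled array lay in a patch. The other Runx1 probe gave 0.48 and 0.03. Among the SOX9 targets, Matn1 differed by -0.29 and 0.38, and Snorc, a proteoglycan of chondrocyte membranes, by -0.36 and 0.29. Among the other limb transcription factors, Foxa2 differed by -1.81 and 0.30, and its spot on the untreated control array lay in a patch. Among the fibroblast-like markers, Thy1 differed by -0.69 and 0.63.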

How the results depend on the processing

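No paired analysis was possible because each condition has 1 array, and thus no second replicate number to form a block. An additive model of genotype and TNF over the 4 arrays could have been fitted, but was not. The Sox6 calls, 1 with TNF in controls and 1 between genotypes without TNF, became 0 with a 3-fold limit, with patches left out and with normexp, which gave Sox6 -0.78 in both. The Runx1 call with TNF (1) became 0 with a 3-fold limit, with the mean over probes and with patches left out, where its other probe stood for it. With a 1.5-fold limit, 2 members were called between genotypes without TNF (Runx2 and Sox6) and 2 for the difference of TNF differences (Runx1 and Sox6). No member was called with TNF on the cKO-labelled arrays under any alternative. Patches left out kept 11 probes of 8 members.

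Of 430 values of member probes under alternatives, 414 stayed within 1 technical SD of the reported value and 16 moved further. That SD was 0.14, or 0.20 for a difference of TNF differences. Of the 16, 10 did so with normexp (Sox6, Runx2, the second Sox5 probe and the brighter Runx3 probe) and 6 with quantile scaling, all TNF differences on the cKO-labelled arrays (the second Sox5 probe, Nkx3-2 and both probes of Runx2 and Runx3). Normexp took the genotype differences of the brighter Runx2 probe from 0.61 to 0.22 without TNF and from 0.47 to 0.23 with TNF, those of the second Sox5 probe from 0.36 to 0.16 and from 0.44 to 0.25, and that of Runx3 with TNF from 0.31 to 0.15. The sign changed in 41, none of them past 2 technical SD, the largest being 0.22 in size. On the cKO-labelled arrays, the TNF difference of all genes had a median of 0.06, and -0.05 without scaling or with the authors' values, a shift that enters every member's difference there. Normexp lowered the calls among the genes of hypertrophy and bone between genotypes to 1 without TNF and 0 with TNF. It and quantile scaling removed the Sp7 call with TNF in controls. Signal over background limits Runx2 most, and then the second probes of Sox5 and Runx3 and the Nkx3-2 probe.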
